A study of Mus musculus with 6 samples.

Results

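The genes described here handle extracellular adenosine in mouse neuromesodermal progenitors (NMPs), and *Nt5e*, which encodes the enzyme that makes adenosine at the cell surface, is at their centre. All rows named *Nt5e*, *Entpd1*, *Entpd2*, *Entpd5*, *Ada*, *Adk*, *Slc29a1* or *Adora2b* were taken, and the values of each gene were summed over its transcripts, which gave 8 of 20631 genes and 18 of 30352 transcripts. These genes were chosen by their measured response to retinoic acid (RA) in these same samples, so their levels, fold changes and calls are given as a description and support nothing. The NMPs, cells that can form both spinal cord and presomitic mesoderm, were made from mouse embryonic stem cells (ESCs) by 2 days in bFGF and 1 day in bFGF with CHIR99021, an activator of Wnt signaling, in medium without retinoids. Both factors were then removed, and the cells were kept for 2 h with the vehicle DMSO, 25 nM RA or 1 µM RA, 2 samples per condition. The ESCs had been grown on embryonic fibroblast feeders, and their strain is 129 R1 according to the labels and C57BL/6 according to the methods. No gene was altered in any group. The duplicates were separate culture dishes that the methods call technical replicates, so the errors below measure the spread between dishes of one experiment.

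ATP that leaves a cell is cut to ADP and AMP by ectonucleotidases such as the products of *Entpd1* (CD39) and *Entpd2*, and AMP is cut to adenosine by the product of *Nt5e* (CD73, ecto-5′-nucleotidase), which is anchored in the outer leaflet of the plasma membrane. Adenosine then acts on G protein-coupled receptors such as that encoded by *Adora2b*, or enters the cell through equilibrative transporters such as that encoded by *Slc29a1* (ENT1). Inside, the kinase encoded by *Adk* turns it back into AMP and the deaminase encoded by *Ada* turns it into inosine. CD73 is widely used as a surface marker of stromal cells and of lymphocyte subsets.

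The libraries held 31753556 to 42029348 estimated counts each. Of the NMP markers, *T* had a mean of 375 RPKM (reads scaled by transcript length and library size) in DMSO, *Nkx1-2* 39.1 RPKM, *Sox2* 5.20 RPKM and *Cdx2* 5.09 RPKM. *Pou5f1* remained at 445 RPKM, whereas the committed neural markers *Sox1* and *Pax6* were at 0.237 and 0.0524 RPKM. *Cyp26a1*, an RA-degrading enzyme gene known to respond to RA, had 52.6 and 52.3 RPKM in the DMSO samples, 178 and 178 RPKM at 25 nM RA and 283 and 272 RPKM at 1 µM RA, in the order of the labelled doses.

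Differences between conditions were fitted across all 15143 genes that passed a filter on low counts, with edgeR's likelihood ratio test, and a gene was called at a Benjamini-Hochberg adjusted p under 0.1. All 8 adenosine handling genes passed the filter. At 25 nM RA, 2 of the 8 were called, *Nt5e* and *Ada*, both higher than in DMSO, where 8.05% of all genes tested were called (4.5% higher and 3.55% lower). At 1 µM RA the same 2 genes were called, both higher, where 19.7% of all genes were called (8.54% higher and 11.2% lower). Between the doses none of the 8 was called by edgeR's likelihood ratio test, by its quasi-likelihood test or by DESeq2, which gave an adjusted p to 5 of them, with 1 of 8 at an unadjusted p under 0.05 by each of them, where 3.41% of all genes were called (0.792% higher and 2.62% lower at 1 µM RA). Since these contrasts were in view when the genes were chosen, nothing is read from the counts. Of all genes called at 1 µM RA, 1293 were higher and 1690 lower with TMM scaling of the libraries, and 976 and 1955 with total counts in its place, and *Nt5e* and *Ada* were among the higher ones in both.

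*Nt5e* (NM_011851, plus strand, chr9:88327609-88372089 of mm10) had 15.1 and 14.5 RPKM in the DMSO samples, 40.4 and 40.3 RPKM at 25 nM RA, and 44.7 and 43.2 RPKM at 1 µM RA. The 4 RA-treated samples lay far above both DMSO samples, and those at 1 µM RA lay slightly above those at 25 nM RA, with no overlap between any of the 3 conditions. The corresponding estimated counts were 2793 and 2202, 5557 and 6982, and 6938 and 6798, so that the level of *Nt5e* rested on at least 2202 reads in every sample. The means were 14.8 ± 0.431 RPKM (SD, n = 2) in DMSO, 40.3 ± 0.0199 RPKM at 25 nM RA and 43.9 ± 1.03 RPKM at 1 µM RA. The fitted log2 fold change (logFC) of *Nt5e* was 1.44 (standard error, SE, 0.0519) at 25 nM RA and 1.56 (SE 0.0518) at 1 µM RA, which are 2.71-fold and 2.94-fold higher levels than in DMSO. Between the doses the log2 difference was 0.12 (SE 0.0493), a 1.09-fold higher level at 1 µM RA. The 2 contrasts share their DMSO samples. As each of the 6 samples was omitted, the logFC of *Nt5e* stayed between 1.42 and 1.46 at the lower dose and between 1.52 and 1.59 at the higher one. In such fits, here and below, the condition that lost a sample rests on 1 sample, which is assumed to vary like those of the other conditions. Ordered from the highest logFC to the lowest, *Nt5e* stood at rank 83 of the 15143 genes at 25 nM RA and at rank 90 at 1 µM RA. In bulk RNA, a higher level in the same cells and a larger share of cells with the transcript cannot be told apart.

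**Figure D1:**
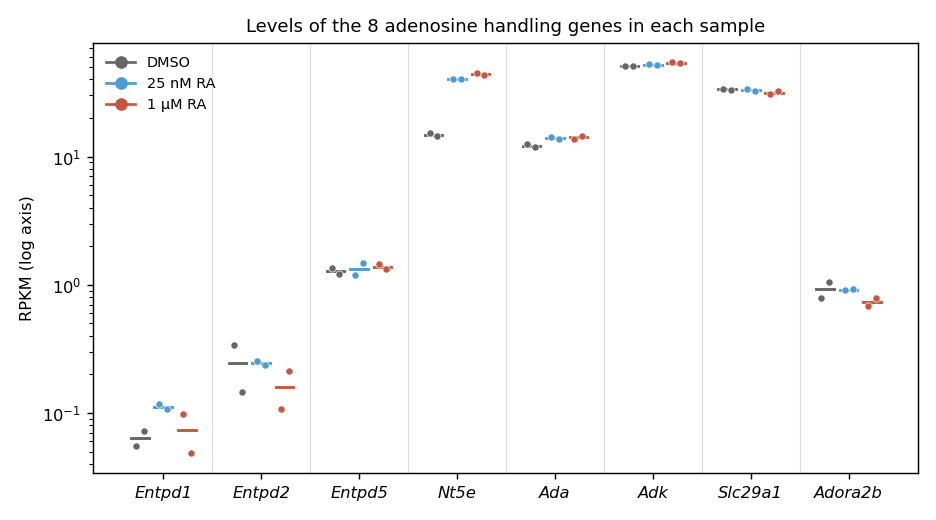
RPKM on a log axis for the 8 genes, with a point for each of the 2 samples per condition and a bar at their mean. The RA-treated samples of *Nt5e* lie between 40.3 and 44.7 RPKM, above its DMSO samples at 14.5 and 15.1 RPKM, and *Entpd1* and *Entpd2* lie under 0.4 RPKM throughout.

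Markers of other cells that the dishes could hold were set beside *Nt5e*. The 9 markers of embryonic fibroblast feeders, which are stromal cells, summed to 6.42 and 6.61 RPKM in DMSO, 6.14 and 6.41 RPKM at 25 nM RA and 5.76 and 5.60 RPKM at 1 µM RA. Of them only *Col1a2* and *Thy1* had a mean over 1 RPKM, and *Lum* and *Prrx1* had a mean under 0.1 RPKM. The feeder sum was thus not higher in any RA-treated sample than in the lower DMSO sample, but its markers differed. *Col1a2* had 2.64 and 2.67 RPKM in DMSO, 2.38 and 2.57 RPKM at 25 nM RA and 2.23 and 2.18 RPKM at 1 µM RA. *Thy1* did not fall, with 1.77 and 1.72 RPKM in DMSO, 1.77 and 1.95 RPKM at 25 nM RA and 1.81 and 1.85 RPKM at 1 µM RA. The presomitic markers *Tbx6* and *Msgn1* summed to 36.0 RPKM in each DMSO sample, 27.5 and 24.8 RPKM at 25 nM RA and 19.9 and 21.4 RPKM at 1 µM RA, and the endoderm markers *Sox17*, *Foxa2* and *Gata6* to 30.5 and 30.6 RPKM, 24.1 and 23.7 RPKM, and 21.7 and 21.8 RPKM. The part of these shifts in the *Nt5e* level was not tested.

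The bases just before the annotated start are shown for *Nt5e* and *Ada*, picked by the calls given above only as a choice of what to show, because RA receptors bind DNA at repeated hexamers. They are from RefSeq (GRCm38.p6, the mm10 build), 5′ to 3′ along the gene, the 250 bases up to the one before the start: chr9:88327359-88327608 on the plus strand for *Nt5e* and chr2:163750240-163750489 on the minus strand for *Ada*. Capitals mark every match, on either strand, to the half-site hexamer AGGTCA, its variant AGTTCA, the variant GGGTCA and the variant GGTTCA, to the GC box GGGCGG, to CCAAT and to TATAAA.
Nt5e: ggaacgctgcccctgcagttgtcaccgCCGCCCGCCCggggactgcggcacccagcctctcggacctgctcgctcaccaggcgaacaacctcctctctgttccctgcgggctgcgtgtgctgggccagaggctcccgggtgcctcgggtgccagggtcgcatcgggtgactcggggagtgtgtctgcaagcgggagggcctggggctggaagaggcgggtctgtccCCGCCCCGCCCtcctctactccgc
Ada: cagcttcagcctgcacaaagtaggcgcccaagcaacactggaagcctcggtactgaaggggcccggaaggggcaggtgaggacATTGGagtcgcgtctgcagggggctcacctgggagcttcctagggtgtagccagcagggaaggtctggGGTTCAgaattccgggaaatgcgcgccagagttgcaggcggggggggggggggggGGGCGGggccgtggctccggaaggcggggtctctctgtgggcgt
All the capitals of the *Nt5e* sequence are GC boxes on the minus strand, 4 in all, which overlap in pairs. They begin 223, 219, 24 and 19 bases before the start. The *Ada* sequence holds a CCAAT on the minus strand, a single half-site GGTTCA that begins 99 bases before the start, and a GC box. Over 300 bases (250 before the start and 50 after it), the *Nt5e* window had a GC content of 71% and 23 CpG dinucleotides, an observed over expected ratio of 0.608, where the medians of all 32851 windows were 52.7% and 0.384.

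All 8 genes had windows, 17 in all because *Slc29a1*, *Adk* and *Entpd1* have several annotated starts. *Slc29a1* has the most windows, some of which overlap, so counts over the 17 are not counts over genes. A single half-site was found in 6 of the 17, those of *Ada*, *Entpd1* and *Slc29a1*, and in 43.7% of all windows, whereas the *Nt5e* window held none. A pair of these hexamers in the same orientation separated by 1, 2 or 5 bases (DR1, DR2 and DR5, each of which also contains single half-sites) was found in none of the 17 windows, and in 0.222%, 0.268% and 0.0974% of all windows. The GC box was in 12 of the 17 and in 35.7% of all windows, CCAAT in 7 and 37.4%, and TATAAA in 0 and 13.6%. These matches describe letters in short windows and say nothing of binding or of sites farther away. The paper reports an RA response element of the DR2 or DR5 kind near *Nt5e*, found through published binding data for RA receptors.

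Of the ectonucleotidases that act before *Nt5e*, *Entpd1* and *Entpd2* were close to the lower limit of what these libraries could measure. In the wider list described below, the ecto-nucleotidase gene *Enpp3* had 4.02 and 3.65 RPKM in DMSO. With RA it had 3.76 and 3.44 RPKM at 25 nM and 3.51 and 3.57 RPKM at 1 µM. *Entpd3* and *Enpp1* of that list had means of 0.0867 and 0.0510 RPKM in DMSO. *Entpd1* (plus strand, chr19:40612366-40741602), which cuts ATP and ADP, had estimated counts of 12 and 13 in DMSO, 19 and 22 at the lower dose and 18 and 9 at the higher dose, or 0.0551 and 0.0726 RPKM, 0.117 and 0.107 RPKM, and 0.0980 and 0.0484 RPKM. The samples at 25 nM RA lay above both DMSO samples, whereas those at 1 µM RA lay on either side of them. Its fitted logFC was 0.81 (SE 0.384) at 25 nM RA and 0.20 (SE 0.417) at 1 µM RA, and the latter was -0.394 without 1 µM RA replicate 1 and 0.632 without 1 µM RA replicate 2.

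*Entpd2* (plus strand, chr2:25395874-25401323), which prefers ATP over ADP, had counts of 34 and 12 in DMSO, 19 and 22 at the lower dose and 9 and 18 at the higher dose. In RPKM these were 0.341 and 0.146, 0.255 and 0.235, and 0.107 and 0.211, so that the DMSO samples enclosed both samples at 25 nM RA and 1 of those at 1 µM RA. The logFC of *Entpd2* was -0.04 (SE 0.366) at 25 nM RA and -0.65 (SE 0.400) at 1 µM RA. The first value was 0.721 without DMSO replicate 1 and -0.476 without DMSO replicate 2. The second was 0.109 without DMSO replicate 1 and -1.21 without 1 µM RA replicate 2. The span of *Entpd2* overlaps *Npdc1* on the same strand by 1973 bases, of which 612 are exonic in both, so that its few reads cannot be assigned with certainty. *Entpd5* (minus strand, chr12:84373876-84409029), whose product cleaves nucleoside diphosphates, mainly UDP in the endoplasmic reticulum, was higher, at 1.35 and 1.22 RPKM in DMSO, 1.19 and 1.48 RPKM at 25 nM RA and 1.44 and 1.32 RPKM at 1 µM RA. All 3 conditions overlapped, and its logFC values were 0.06 and 0.08 (SEs 0.114 and 0.113), the first of which was -0.129 without 25 nM RA replicate 2. With so few reads, changes of *Entpd1* or *Entpd2* within the SEs given were not detectable.

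The enzymes that remove adenosine were expressed at higher levels. *Ada* (minus strand, chr2:163726571-163750239) had 12.5 and 11.8 RPKM in DMSO, 14.3 and 13.6 RPKM at 25 nM RA, and 13.8 and 14.5 RPKM at 1 µM RA. All 4 RA-treated samples lay above both DMSO samples, and the doses overlapped each other. The means were 12.1 ± 0.473, 13.95 ± 0.433 and 14.2 ± 0.520 RPKM (SD, n = 2), and the logFC values 0.20 (SE 0.0638) and 0.21 (SE 0.0636), or 1.15-fold and 1.16-fold. These values were far smaller than those of *Nt5e*, 1.44 and 1.56, at the same doses. *Ada* was no longer called at 25 nM RA by DESeq2, in the fit of single transcripts, or without DMSO replicate 2, 25 nM RA replicate 1 or 25 nM RA replicate 2. At 1 µM RA it was not called in the fit of transcripts or without DMSO replicate 2. In each of these fits at the higher dose another gene was called in place of *Ada*. When single transcripts were fitted, this was *Entpd5*, judged by its transcript with the smallest p, whose direction is not given here. The *Entpd5* transcript with the most counts, NM_001026214, had a logFC of -0.813, where the summed gene had 0.08. Its counts were 143 and 150 in DMSO and 74.3 and 83.6 at 1 µM RA. Those of NM_001286058 went the other way, from 54.2 and 24.9 to 77.9 and 81.6. When DMSO replicate 2 was omitted, the gene called in place of *Ada* was *Entpd2*, with a logFC of -1.09.

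*Adk* (plus strand, chr14:21052574-21448569) had the highest level of the 8 genes, at 50.9 and 51.0 RPKM in DMSO, 52.7 and 51.6 RPKM at 25 nM RA and 54.5 and 53.8 RPKM at 1 µM RA. The conditions did not overlap, but they were close together, with logFC values of 0.03 and 0.08 (SEs 0.0488 and 0.0487), which for the lower dose is less than the SE. The transporter gene *Slc29a1* (minus strand, chr17:45585200-45599603) had 33.8 and 33.2 RPKM in DMSO, 33.4 and 32.2 RPKM at 25 nM RA and 30.6 and 32.5 RPKM at 1 µM RA. Of the 2 doses only 1 µM RA had both samples below both DMSO samples, and the logFC values were -0.03 and -0.10 (SEs 0.0510 and 0.0512). An antisense transcript, *Gm17080*, shares 275 exonic bases with *Slc29a1*, and whether the counting used strand is not given in the sources used here.

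The receptor gene *Adora2b* (plus strand, chr11:62248984-62266452), whose product is the low-affinity adenosine receptor coupled to cAMP production, had 0.790 and 1.05 RPKM in DMSO, 0.902 and 0.919 RPKM at 25 nM RA and 0.687 and 0.790 RPKM at 1 µM RA. Its counts were 75 and 82, 64 and 82, and 55 and 64. The samples at 25 nM RA lay between the DMSO samples, and those at 1 µM RA were low but reached the lower DMSO sample. Its logFC was -0.00 (SE 0.190) at 25 nM RA and -0.31 (SE 0.198) at 1 µM RA. These became -0.214 and -0.522 without DMSO replicate 1, and 0.211 and -0.0955 without DMSO replicate 2.

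**Figure D2:**
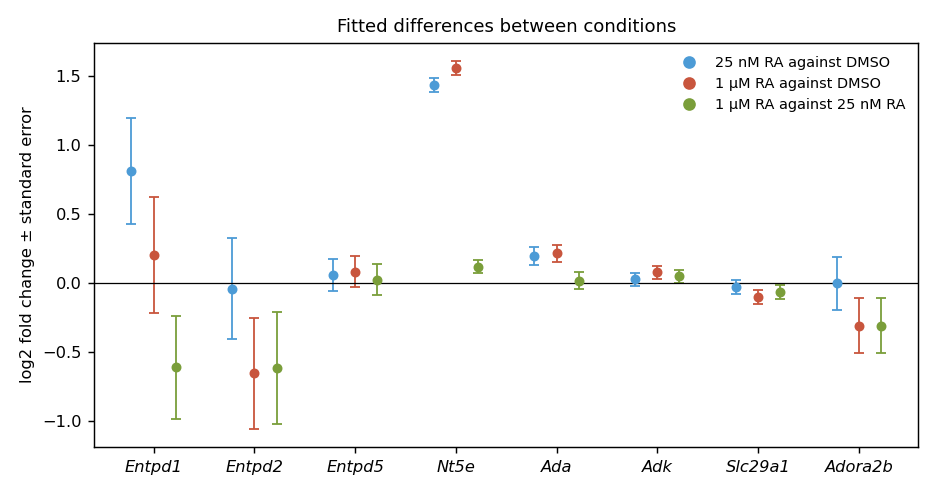
Fitted logFC values of the 8 genes for 25 nM RA and 1 µM RA against DMSO and for 1 µM against 25 nM RA, with bars of 1 SE. *Nt5e* lies at 1.44 and 1.56 against DMSO, *Ada* at 0.20 and 0.21, and the wide bars of *Entpd1* and *Entpd2* belong to counts between 9 and 34.

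In order of RPKM, which is scaled by length, the genes in DMSO were *Adk*, *Slc29a1*, *Nt5e*, *Ada*, *Entpd5*, *Adora2b*, *Entpd2* and *Entpd1*, and no neighbours in this order overlapped between duplicates. With either dose of RA the only exchange was that *Nt5e* moved above *Slc29a1*. At 1 µM RA the means of *Entpd2* and *Entpd1*, 0.159 ± 0.0738 and 0.0732 ± 0.0351 RPKM (SD, n = 2), differed by less than the sum of their SDs. Among all 20631 genes, *Nt5e* was above 79.8% of them in DMSO, 91.9% at the lower dose and 92.4% at the higher dose. The summed level of the 7 other genes was 99.7 and 98.5 RPKM in DMSO, 103 and 100.2 RPKM at 25 nM RA and 101 and 103 RPKM at 1 µM RA. The share of *Nt5e* in the sum of all 8 was 13.2% and 12.9% in DMSO, 28.2% and 28.7% at the lower dose and 30.6% and 29.5% at the higher dose. The ratio of *Nt5e* to the sum of *Ada* and *Adk*, in RPKM, was 0.239 and 0.232 in DMSO, 0.602 and 0.618 at the lower dose and 0.654 and 0.632 at the higher dose. These ratios are of transcripts and not of enzyme activities.

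The files list *Nt5e*, *Entpd2* and *Adora2b* by 1 transcript each, so their values involve no division of reads between isoforms. *Ada* has 2 transcripts, of which NM_007398 took between 74.0% and 89.2% of its counts, the lowest share being that of 25 nM RA replicate 2. *Adk* has 2, and NM_134079, the form with the upstream start, took 54.4% to 64.2%. *Slc29a1* has 5, with the largest share, 37.5% to 50.5%, in NM_001199113. *Entpd5* has 4, and the share of NM_001026214 ranged from 24.1% to 58.6% across samples. The estimated counts of the 2 *Entpd1* transcripts were divided in an identical proportion in 5 of the 6 samples, and 99.4% went to 1 of them in 25 nM RA replicate 2. Duplicates of a condition therefore differed in how reads were divided, while the counts summed per gene do not depend on it. The summed RPKM values can, because each transcript is scaled by its own length.

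The genes beside *Nt5e* on chromosome 9 were examined in the same fit. *Snx14*, which encodes a sorting nexin and lies 4.7 kb past the end of *Nt5e*, had logFC values of 0.00 and 0.07 (adjusted p = 0.99 and 0.50, edgeR's likelihood ratio test). *Syncrip*, an RNA-binding protein gene 77.3 kb away at 78.4 to 85.9 RPKM, and the small nucleolar RNA host gene *Snhg5*, 149.0 kb away, had logFC values of 0.05 and 0.11 at 1 µM RA (adjusted p = 0.58 and 0.20). On the other side the nearest gene was *Tbx18*, a T-box transcription factor gene 596.3 kb away, which had 0.0871 and 0.0859 RPKM in DMSO, 0.156 and 0.110 RPKM at 25 nM RA and 0.261 and 0.316 RPKM at 1 µM RA. The samples lay in the order of the doses without overlap, at low levels of at most 0.316 RPKM. *Tbx18* rose at 1 µM RA by 1.72 on the log2 scale (SE 0.285, adjusted p = 3.8e-09) and was also higher at 1 µM than at 25 nM RA (log2 difference 1.14, SE 0.256, adjusted p = 0.00085), whereas at 25 nM RA its logFC was 0.59 (SE 0.320, adjusted p = 0.38). The difference between the doses was not called in the fit of transcripts or without 25 nM RA replicate 2, and DESeq2 gave it no adjusted p, with adjusted p-values from 0.00057 to 0.18 over the alternatives. *Cep162* and *Mrap2*, 1072.1 and 1143.6 kb away, had logFC values of 0.06 and -0.61 at 1 µM RA (adjusted p = 0.63 and 0.53). Of the 6 neighbours, *Tbx18* was thus called at 1 µM RA, where 19.7% of all genes were called. *Snhg5* was also called without 1 µM RA replicate 2, at logFC values of 0.191 against DMSO and 0.179 between the doses.

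**Figure D3:**
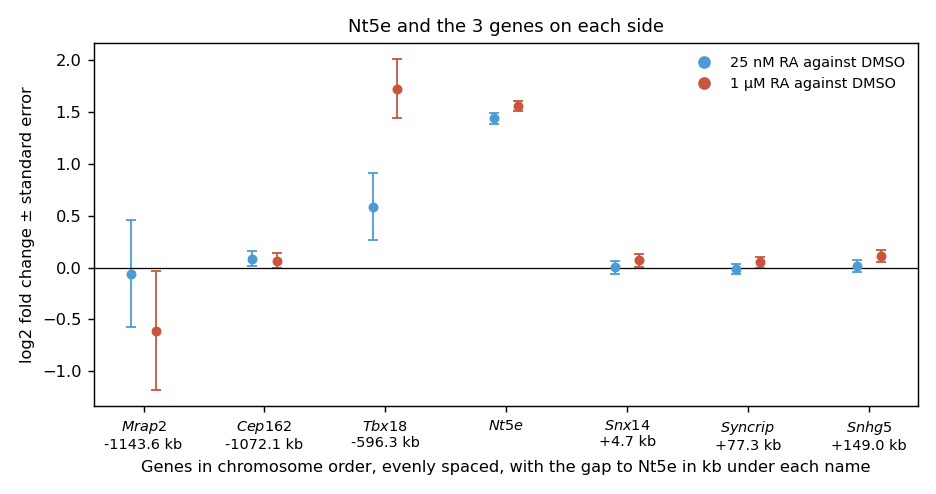
Log2 fold changes of *Nt5e* and the 3 genes on each side in chromosome order, with bars of 1 SE and the gap to *Nt5e* in kb under each name. *Snx14*, 4.7 kb from *Nt5e*, lies at 0.00 and 0.07, and *Tbx18*, 596.3 kb away, at 0.59 and 1.72.

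The profile of *Nt5e* over the 6 samples, as log2 CPM centred on its mean, was compared with those of 11094 genes with a mean over 1 RPKM by Euclidean distance. The closest was that of *Nrip1*, a nuclear receptor corepressor gene, at a distance of 0.072, where the median gene was at 1.73. *Nrip1* had 2.76 and 2.56 RPKM in DMSO, 7.03 and 7.08 RPKM at 25 nM RA and 8.11 and 7.93 RPKM at 1 µM RA, lower throughout than *Nt5e*. The others were *B3gnt7*, a glycosyltransferase gene, at 0.0916, *Rin2*, a Rab5 regulator gene, at 0.141, *Rara*, which encodes an RA receptor, at 0.143, and the NMP marker *Sox2* at 0.154. Their logFC values lay between 1.39 and 1.56 at 25 nM RA and between 1.51 and 1.64 at 1 µM RA. The likeness was found by choosing the closest of many genes and is a description.

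**Figure D4:**
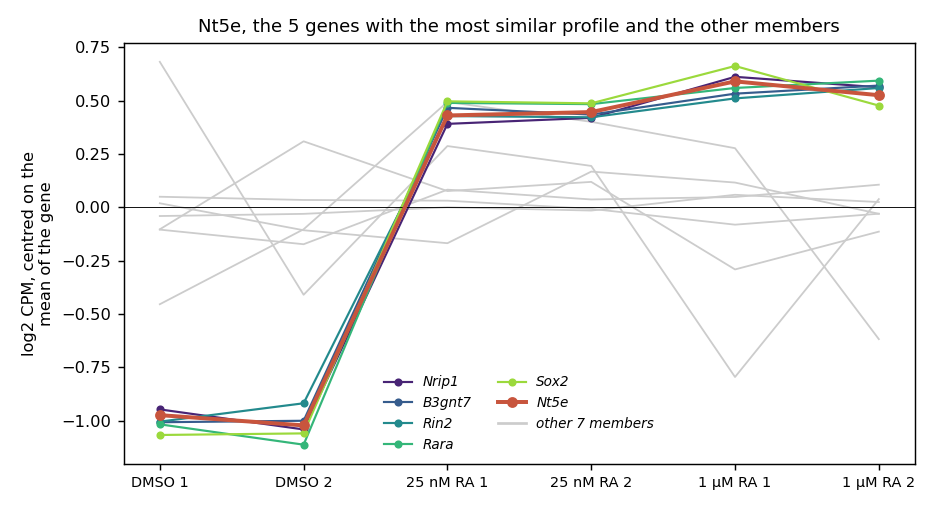
Log2 CPM of each gene centred on its mean over the 6 samples, for *Nt5e*, the 5 genes with the smallest distance from it and the 7 other adenosine handling genes in grey. *Nt5e* and the 5 genes step up by 1.39 to 1.56 between DMSO and 25 nM RA and little further to 1 µM RA, and no grey line makes a step of this size at both doses.

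A wider list of 75 further genes of adenosine and nucleotide handling was then examined, of which 71 occur in the files and 57 passed the filter on low counts (14 did not). *Panx3*, *Alppl2*, *Entpd4* and *Adora3* were not matched. At 25 nM RA, 7 of the 57 were called, 3 higher and 4 lower, or 12.3% against 8.05% of all genes. At 1 µM RA, 10 were called, 4 higher and 6 lower, or 17.5% against 19.7% of all genes. The median logFC of the 57 was 0.02 at either dose, and that of all genes 0.00. DESeq2 called 2 and 5 genes, and edgeR's quasi-likelihood test 6 and 7. The share called was thus near that of all genes at both doses, with single genes on either side.

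Of the ecto-nucleotidases of the wider list, *Alpl*, the tissue-nonspecific alkaline phosphatase, which can also cut AMP to adenosine, rose at both doses. It had 6.48 and 5.71 RPKM in DMSO, 8.72 and 8.96 RPKM at 25 nM RA and 8.33 and 8.87 RPKM at 1 µM RA, so that every RA-treated sample lay above both DMSO samples. Its logFC was 0.53 (SE 0.0722, adjusted p = 2.3e-11, likelihood ratio test in edgeR) at 25 nM RA and 0.48 (SE 0.0723, adjusted p = 8.2e-10) at 1 µM RA. The call held in all 9 other fits and whichever sample was left out. *Enpp2*, autotaxin, which mainly makes lysophosphatidic acid, fell from 2.30 and 2.36 RPKM in DMSO to 2.03 and 1.86 RPKM at 25 nM RA and 1.63 and 1.62 RPKM at 1 µM RA. Its logFC was -0.53 at 1 µM RA (SE 0.0959, adjusted p = 8.8e-07) and -0.27 at 25 nM RA (adjusted p = 0.053), the latter not called by DESeq2, in the fit of transcripts, or without DMSO replicate 1, DMSO replicate 2 or 25 nM RA replicate 2. *Acpp*, a phosphatase with ecto-5′-nucleotidase activity, passed the threshold at both doses with logFC values of -0.86 and -0.74 (adjusted p = 0.076 and 0.080), on counts of 18 to 45. Its adjusted p by the quasi-likelihood test was 0.16 and 0.12. The call was also lost by DESeq2, with transcripts fitted singly, with no filter on low counts and without DMSO replicate 2, at 25 nM RA also without either 25 nM RA replicate and at 1 µM RA also without 1 µM RA replicate 1.

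The wider list held 2 adenosine receptors that could be tested. *Adora1*, a receptor that lowers cAMP, had 0.249 and 0.271 RPKM in DMSO, 0.165 and 0.149 RPKM at 25 nM RA and 0.236 and 0.198 RPKM at 1 µM RA. Both RA conditions lay below both DMSO samples, and its logFC was -0.68 (SE 0.217, adjusted p = 0.028) at 25 nM RA and -0.38 (adjusted p = 0.21) at 1 µM RA. The call at 25 nM RA was lost by DESeq2, in the fit of transcripts, and without DMSO replicate 1 or 2 or 25 nM RA replicate 1 or 2, and *Adora1* shares 1162 exonic bases with *Mybph* on the other strand. *Adora2a* was at 0.0869 RPKM in DMSO, lower than *Adora2b*, which makes *Adora2b* the adenosine receptor with the highest mean RPKM of the 3 measured here.

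Among transporters of nucleosides, 2 of 6 were lower at 1 µM RA, where 11.2% of all genes were, and none was called at 25 nM RA by the likelihood ratio test, the quasi-likelihood test or DESeq2 (3, 3 and 0 at an unadjusted p under 0.05), where 8.05% of all genes were. *Slc29a3*, the lysosomal relative of *Slc29a1*, had 0.660 and 0.609 RPKM in DMSO, 0.466 and 0.545 RPKM at 25 nM RA and 0.343 and 0.417 RPKM at 1 µM RA. Its logFC was -0.75 (SE 0.153, adjusted p = 1.6e-05) at 1 µM RA, a call that held in all 9 other fits and whichever sample was left out, and -0.32 (adjusted p = 0.21) at 25 nM RA. *Slc29a4*, a plasma membrane monoamine and adenosine transporter gene, had a logFC of -0.32 at 1 µM RA (adjusted p = 0.083, and 0.11 by the quasi-likelihood test), and the call was also lost by DESeq2, with transcripts fitted singly, with no filter on low counts and without DMSO replicate 1 or 1 µM RA replicate 1.

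Of the genes that interconvert AMP, IMP and adenosine or bind adenosine deaminase, *Adssl1*, an adenylosuccinate synthase, had 1.94 and 2.02 RPKM in DMSO, 2.89 and 2.52 RPKM at 25 nM RA and 2.89 and 3.02 RPKM at 1 µM RA. It rose by 0.44 (SE 0.119, adjusted p = 0.0057) and 0.57 (SE 0.117, adjusted p = 1.9e-05) on the log2 scale, and the lower dose was not called by DESeq2, in the fit of transcripts, or without DMSO replicate 1 or 25 nM RA replicate 1. *Dpp4*, a surface peptidase that in humans anchors adenosine deaminase, had 0.408 and 0.410 RPKM in DMSO, 0.269 and 0.221 RPKM at 25 nM RA and 0.341 and 0.357 RPKM at 1 µM RA. Its logFC was -0.69 (SE 0.185, adjusted p = 0.0041) at 25 nM RA, a call lost by DESeq2, in the fit of transcripts and without 25 nM RA replicate 2, and -0.22 (adjusted p = 0.44) at 1 µM RA. Between the doses the difference of *Dpp4* had an adjusted p of 0.22.

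Genes that let ATP out of the cell included *Gja1*, connexin 43, whose hemichannels can pass ATP. It had 68.2 and 66.9 RPKM in DMSO, 76.9 and 79.1 RPKM at 25 nM RA and 77.4 and 76.7 RPKM at 1 µM RA, all RA-treated samples lying above both DMSO samples. *Gja1* rose by 0.20 (SE 0.0484, adjusted p = 0.00089) and 0.18 (SE 0.0484, adjusted p = 0.0021) on the log2 scale, and only without 25 nM RA replicate 2 was the lower dose not called, at an adjusted p of 0.10. *Slc17a9*, the vesicular nucleotide transporter, was the only gene of the wider list called between the doses, where 3.41% of all genes were called. It had 0.336 and 0.237 RPKM in DMSO, 0.438 and 0.461 RPKM at 25 nM RA and 0.136 and 0.259 RPKM at 1 µM RA, with counts of 13 to 49. The log2 difference was -1.19 (SE 0.305, adjusted p = 0.0057, and 0.071 by the quasi-likelihood test). It was not called in the fit of transcripts or without 25 nM RA replicate 2 or 1 µM RA replicate 1, and DESeq2 gave it no adjusted p.

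At 1 µM RA 3 further genes passed the threshold by a small margin. The mitochondrial nucleotidase *Nt5m* had a logFC of 0.26 (adjusted p = 0.058), the ATP and UTP receptor *P2ry2* one of -0.85 (adjusted p = 0.067) and the intracellular NTPDase *Entpd7* one of -0.24 (adjusted p = 0.097). None of these 3 was called by DESeq2 or in the fit of transcripts, and *Entpd7* had an adjusted p of 0.11 by the quasi-likelihood test. *Nt5m* was also lost without DMSO replicate 1, 1 µM RA replicate 1 or 1 µM RA replicate 2, *P2ry2* when any 1 of the 4 DMSO and 1 µM RA samples was left out, and *Entpd7* when any 1 of the 6 was. *Entpd7* shares 444 exonic bases with *Cox15* on the other strand. No gene was called by the likelihood ratio test at any comparison among 5 P2X receptors (1, 0 and 0 at an unadjusted p under 0.05 at 25 nM RA, at 1 µM RA and between doses), 7 adenylate kinases (0, 1 and 1) or 6 genes of purine salvage and breakdown (0, 0 and 1), nor by the quasi-likelihood test or DESeq2. Over all genes 8.05%, 19.7% and 3.41% were called, and nothing is read from counts of 0 in groups this small. Some of these genes were abundant: the salvage enzyme gene *Aprt* had 116, 120 and 123 RPKM in DMSO, 25 nM RA and 1 µM RA. *Ahcy*, whose product releases adenosine from S-adenosylhomocysteine, had 201, 203 and 205 RPKM.

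**Figure D5:**
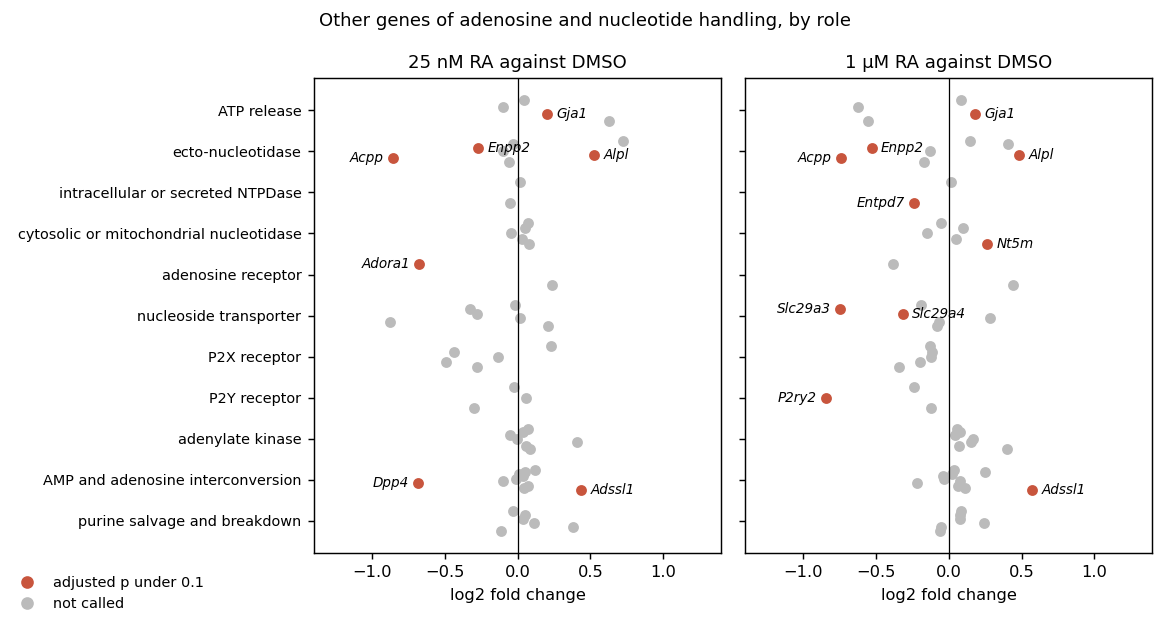
Log2 fold changes of the 57 tested genes of the wider list against DMSO, grouped by role, at 25 nM RA (left) and 1 µM RA (right). Named points in red have an adjusted p under 0.1, 7 of 57 at 25 nM RA and 10 of 57 at 1 µM RA, and grey points were not called.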

How the data were processed

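Ribosomal RNA was removed from total RNA before single-end sequencing of 50 bases. The authors aligned reads to mm10 with TopHat2 2.0.13 and Bowtie2 2.2.5.0, and transcript abundance came from an expectation-maximization estimate, with Partek 6.6 among the tools named (versions from the submitters' processing notes). The authors deposited, for each RefSeq transcript, an estimated count without normalization, of which 49.8% to 50.4% were not whole, and an RPKM value scaled by transcript length and reads. Here both were summed per gene. Rounded counts went into edgeR 4.0.16 (R 4.3.3) with TMM factors between 0.98929 and 1.0078, filterByExpr and 1 coefficient for each condition over 6 samples. The likelihood ratio test is the one named in the methods, and it was applied here to genes, whereas the paper ranked transcripts. Against sampling noise, duplicates had a mean chi-square of 3.82 to 5.88 per gene, and all dishes were counted separately. P-values were adjusted by Benjamini-Hochberg over 15143 genes. On data simulated for 25 nM RA against DMSO (15018 genes), 88.4% of 199 genes changed 2-fold were recovered, and 15.4% of 208 calls were of unchanged genes.

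The members and the wider list were chosen with earlier results of these data known. Genes named are all members, 3 neighbours of *Nt5e* per side, the 5 closest profiles, and markers. Of the wider list, up to 12 genes called at either dose are named, in order of adjusted p. *Slc17a9* is named as a count of 1 chosen after its value was seen. *Adora2a*, *Aprt*, *Ahcy*, *Enpp3*, *Entpd3* and *Enpp1* are examples, also chosen with their values seen. Profiles used a prior count of 2. Gene ends are the Stop values of the files less 1, which is where the annotation ends more genes (36% against 4.05% of 19714). Exon overlaps are from GENCODE on mm10. Alternatives were DESeq2 1.42.0, the quasi-likelihood test, other scalings, filters and thresholds, transcripts, a replicate block, and omission of each sample. Files of the 6 samples hold no other columns of per-sample values.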

Additional observations from a re-analysis of the deposited data

How the results depend on the processing

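The fits set beside the likelihood ratio test were 10 alternatives and the omission of each of the 6 samples. Among the 8 members and the 6 neighbours of *Nt5e*, no log2 fold change called by that test over all samples changed sign under them. The signs of the values of the wider list were not compared in this way. The genes called, 1219 at 25 nM RA, 2983 at 1 µM RA and 516 between doses, became 567, 1594 and 158 by DESeq2, 744 and 1639 at the 2 doses with transcripts fitted singly, 336 between doses by the quasi-likelihood test, and 340 between doses at an adjusted p under 0.05. With a sample left out they ranged from 799 to 1345, from 1922 to 2838 and from 205 to 577. Counts moved by over 1.5 times without DMSO replicate 2 (800 at 25 nM RA, 1922 at 1 µM RA), DMSO replicate 1 (1960 at 1 µM RA), 25 nM RA replicate 2 (799 at 25 nM RA, 247 between doses) and 25 nM RA replicate 1 (205 between doses).

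Of the wider list, the 7, 10 and 1 genes called became 2, 5 and 0 by DESeq2 (5, 6 and 2 at an unadjusted p under 0.05; it gave an adjusted p to 54, 50 and 33 of the 57, and none to *Slc17a9* between doses), 2, 6 and 2 with transcripts fitted singly, 5 for 1 µM RA at an adjusted p under 0.05, and 0 between doses with counts of at least 50 in 2 samples. With a sample left out they ranged from 2 to 7, from 6 to 12 and from 0 to 2. At 25 nM RA 4 were called without DMSO replicate 1, DMSO replicate 2 or 25 nM RA replicate 1 and 2 without 25 nM RA replicate 2, at 1 µM RA 6 without DMSO replicate 1, and between doses 0 without 25 nM RA replicate 2 or 1 µM RA replicate 1 and 2 without 1 µM RA replicate 2. The cause of these shifts was not tested. With a sample left out, the log2 fold change of *Nt5e* lay between 1.42 and 1.46, between 1.52 and 1.59, and between 0.0846 and 0.152 between doses.

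With the replicate number as a block (replicate block), 1138, 2756 and 423 genes were called, and 7, 9 and 1 of the wider list, without *Slc29a4* at 1 µM RA. The numbers are shared by the labels only: deviations of same-numbered samples correlated across 13843 genes at -0.063, 0.056 and -0.074. The sums of *Entpd1* and *Entpd2* rest on 9 to 34 counts per sample, so depth limits what can be said of them.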
